A study of Mus musculus with 8 samples.

Results

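The astrocyte markers described here are 10 genes of the 45706 in the deposited count table of a bulk RNA-seq experiment on cultured mouse hippocampal neurons. They are *Gfap*, *Aqp4*, *Ptn*, *Slc1a2*, *Slc1a3*, *Aldh1l1*, *S100b*, *Gja1*, *Sox9* and *Aldoc*, matched by gene identifier. *Gfap*, *Aqp4* and *Ptn* were picked on their measured values in these wells, because they lay lower with melanin-concentrating hormone (MCH) in replicates 1 and 2 and higher in replicates 3 and 4. Their MCH responses are therefore described without a test, and tests are given for the other 7 markers. All 10 were kept by the filter on low counts of edgeR, which left 14962 genes.

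The neurons came from C57/Bl6 wild type mice at embryonic day 18 and received 1 µM MCH peptide or vehicle (H2O) during 4 h. Each treatment had 4 wells, numbered as replicates 1 to 4. All wells had been given 10 µM fluorodeoxyuridine after 3 d against overgrowth of glia, and were collected at 12 to 14 days in vitro. By the methods the wells came from 2 independent cultures, each giving 2 wells per treatment, but the culture of each replicate is not given in the sources used here. In the labels the model entry reads Alzheimer's disease, whereas the genotype entry is wild type for both treatments. MCH is a hypothalamic neuropeptide, and the experiment asked which transcripts of hippocampal neurons respond to it.

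Astrocytes are the glial cells that take up glutamate and potassium released by neurons, are coupled to each other by gap junctions and wrap blood vessels with their endfeet. Cultures of embryonic hippocampal neurons are enriched for neurons but usually keep some glia, and astrocyte transcripts in a bulk library can report on those cells. The cell type that the transcripts of each marker came from was not measured here. In bulk libraries, fewer astrocytes and less RNA per astrocyte cannot be told apart.

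The 8 libraries held between 26083936 and 31844861 estimated counts. The strongest component of the variation left within treatments (59.8% of the variance) set replicates 1 and 2 apart from replicates 3 and 4. These sides of the wells were read from the counts themselves, so levels between them are described without a test. Levels are given in CPM (counts scaled to a common library size) after TMM scaling, and comparisons between genes in TPM (transcript abundances scaled for length and depth). The 12 neuron markers listed for this work summed to 11970 to 12210 CPM in replicates 1 and 2 and to 10850 to 11120 CPM in replicates 3 and 4. The 10 astrocyte markers took between 0.115% and 0.126% of all counts in replicates 1 and 2, and between 0.252% and 0.291% in replicates 3 and 4.

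On GRCm38, *Gfap* (ENSMUSG00000020932) is at chr11:102887336-102900912 on the minus strand and *Ptn* (ENSMUSG00000029838) at chr6:36714929-36810220 on the minus strand. *Slc1a2* (ENSMUSG00000005089) is at chr2:102658659-102790784 on the plus strand and *Slc1a3* (ENSMUSG00000005360) at chr15:8634124-8710764 on the minus strand. *Aldh1l1* (ENSMUSG00000030088) is at chr6:90486427-90600203, *S100b* (ENSMUSG00000033208) at chr10:76253853-76261159, *Gja1* (ENSMUSG00000050953) at chr10:56377330-56402513, *Sox9* (ENSMUSG00000000567) at chr11:112782224-112787760 and *Aldoc* (ENSMUSG00000017390) at chr11:78322968-78327781, all on the plus strand. *Slc1a3* and *Aldh1l1* overlap other annotated genes on the same strand (*Gm37310*, and *Gm44236* and *Gm45901*), so their counts may be shared with them. *S100b* overlaps *Dip2a* on the other strand, and the libraries were made with a stranded kit.

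To show what lies before the start of markers whose levels moved together, the 250 bases upstream of the RefSeq start (GRCm38.p6) are printed for *Gfap*, *Slc1a3* and *Gja1*. These windows hold no annotated exon, and the most abundant transcript of each gene begins 69, 43 and 30 bases downstream of that start. Capitals mark matches, on either strand, to CCAAT (a promoter element bound by nuclear factor Y), TTGGC (a partial site of the nuclear factor I family), TTCNNNGAA (the core bound by STAT factors), TATAAA (the TATA box) and TGACG (a site bound by CREB and related factors). CCAAT and TTGGC can overlap, as in GCCAAT.
Gfap, chr11:102897201-102897450, minus strand: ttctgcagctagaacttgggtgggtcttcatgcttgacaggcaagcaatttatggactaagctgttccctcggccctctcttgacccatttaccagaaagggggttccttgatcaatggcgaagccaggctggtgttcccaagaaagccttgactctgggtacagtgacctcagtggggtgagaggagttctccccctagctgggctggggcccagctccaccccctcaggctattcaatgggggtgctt
Slc1a3, chr15:8710808-8711057, minus strand: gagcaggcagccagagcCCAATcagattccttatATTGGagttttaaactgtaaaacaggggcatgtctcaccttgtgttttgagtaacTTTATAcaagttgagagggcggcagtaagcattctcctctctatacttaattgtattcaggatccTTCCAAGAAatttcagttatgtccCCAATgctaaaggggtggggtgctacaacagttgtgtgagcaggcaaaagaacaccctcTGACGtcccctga
Gja1, chr10:56377050-56377299, plus strand: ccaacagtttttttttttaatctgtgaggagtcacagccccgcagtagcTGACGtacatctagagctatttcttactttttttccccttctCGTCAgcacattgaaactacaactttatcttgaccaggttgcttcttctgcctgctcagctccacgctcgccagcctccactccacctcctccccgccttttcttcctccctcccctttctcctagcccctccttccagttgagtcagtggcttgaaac
The *Gfap* window held none of the 5 motifs, and the *Slc1a3* window held CCAAT 3 times, starting 233, 216 and 72 bases before the start, with TTCNNNGAA at 96 bases, TATAAA at 161 bases and TGACG at 13 bases. The *Gja1* window held TGACG at 201 and 159 bases before the start. Over the 32851 windows of the same length in the RefSeq table, CCAAT was present in 33.8%, TTGGC in 41.5%, TTCNNNGAA in 7.02%, TATAAA in 12.4% and TGACG in 17.8%. Of the 10 markers, 8 had a window, and no motif was present in all of them. *Aldoc* had 2 windows. The one whose start lies 2 bases from that of its most abundant transcript, *Aldoc*-202, held TTCNNNGAA at 124 and 83 bases, but overlaps an exon of *Aldoc*-205 and is not printed. The *Slc1a2* window lies 47779 bases downstream of the start of its most abundant transcript, *Slc1a2*-202, and so does not show that transcript's promoter.

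All 10 markers were higher in every well of replicates 3 and 4 than in any well of replicates 1 and 2, with ratios of mean CPM from 1.20-fold for *Slc1a2* to 6.17-fold for *Aqp4*. Of the 14962 genes, 16.6% lay entirely higher in replicates 3 and 4 in this way, and 323 were at least 3-fold higher, of which 7 are among these markers.

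**Figure D1:**
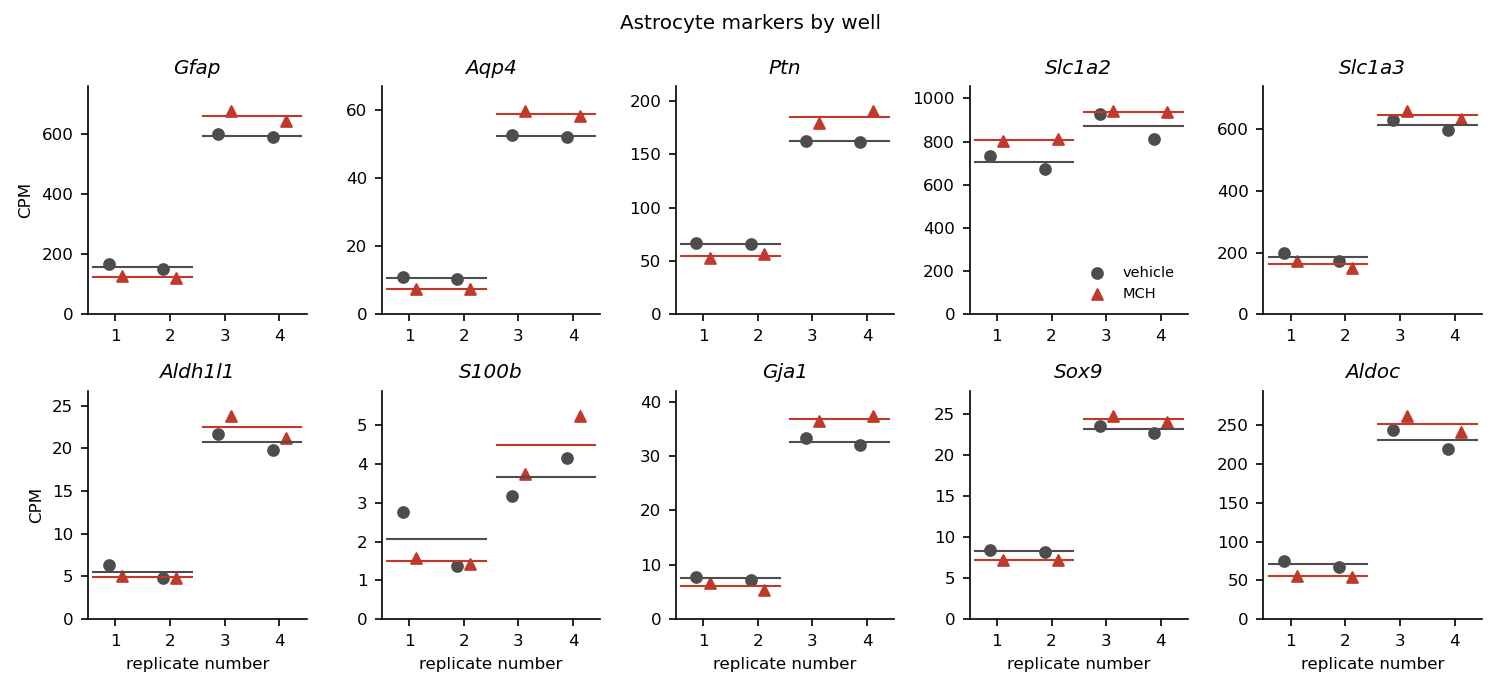
Level of the 10 astrocyte markers in each well, in CPM on linear axes from 0, against the replicate number; grey circles are vehicle, red triangles MCH, and lines the mean of 2 wells. Replicates 3 and 4 lie above replicates 1 and 2 in every panel, by 1.20-fold in *Slc1a2* and 6.17-fold in *Aqp4*.

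*Gfap* encodes the glial fibrillary acidic protein, the main intermediate filament of astrocytes. With vehicle it stood at 166.9, 150.2, 599.5 and 588.6 CPM in replicates 1 to 4, and with MCH at 127.6, 119.6, 675.2 and 643.1 CPM. The MCH wells were thus the lowest of replicates 1 and 2 and the highest of replicates 3 and 4, without overlap on either side. The log2 fold change of MCH over vehicle was −0.36 (standard error 0.05) in replicates 1 and 2, a difference of −22.1% in mean CPM, and 0.15 (standard error 0.04), or 11%, in replicates 3 and 4. The difference between these responses was 0.51 (standard error 0.07) on the log2 scale.

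*Aqp4* (ENSMUSG00000024411), on the minus strand of chromosome 18 from base 15389496 to 15410982, encodes the water channel of astrocyte endfeet. Its levels were 11, 10.4, 52.8 and 52.1 CPM with vehicle and 7.44, 7.32, 59.7 and 58.2 CPM with MCH in replicates 1 to 4. It had the widest ratio between the sides of these 10 markers, 4.91-fold with vehicle and 7.99-fold with MCH. Again the treatments did not overlap on either side, with log2 fold changes of −0.53 (standard error 0.09) in replicates 1 and 2 and 0.17 (standard error 0.06) in replicates 3 and 4, and a difference of 0.70 (standard error 0.11). The estimated counts behind the level in replicates 1 and 2 were 195 to 286 per well.

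*Ptn* encodes pleiotrophin, a secreted heparin-binding growth factor that glia supply to neurons. It stood at 66.7, 65.6, 162.8 and 161.8 CPM with vehicle and at 52.8, 56.1, 179.5 and 190.3 CPM with MCH. MCH wells were lower than vehicle wells in replicates 1 and 2 and higher in replicates 3 and 4, by −0.28 (standard error 0.05) and 0.19 (standard error 0.04) on the log2 scale, with a difference of 0.47 (standard error 0.07). Of the 11 other genes of the pleiotrophin family and its receptors, none passed the test of edgeR in any comparison. *Mdk*, which encodes the related factor midkine, was 2.88-fold and the receptor *Ptprz1* 2.43-fold higher in replicates 3 and 4, against 1.20-fold for the list's median. The most abundant by TPM, the receptor genes *Ptprs* and *Sdc3* and the nucleolin gene *Ncl*, were at 1.09-fold, 1.20-fold and 0.954-fold, with *Ncl* entirely lower in replicates 3 and 4.

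The glutamate transporters *Slc1a2* (GLT-1) and *Slc1a3* (GLAST), which clear glutamate from the synaptic cleft, behaved differently from each other. *Slc1a3* read 197.0, 174.2, 630.8 and 596.5 CPM with vehicle and 172.5, 151.2, 657.7 and 632.5 CPM with MCH, whereas *Slc1a2* read 734.1, 674.5, 929.0 and 812.4 CPM with vehicle and 802.5, 812.2, 939.9 and 936.5 CPM with MCH. *Slc1a3* was 3.62-fold higher in replicates 3 and 4 and *Slc1a2* only 1.20-fold, and *Slc1a2* was the marker whose MCH wells lay above the vehicle wells in both sides. In replicates 1 and 2 its log2 fold change came to 0.20 (standard error 0.06, adjusted *P* = 0.155), 0.11 (adjusted *P* = 0.645) in replicates 3 and 4 and 0.15 (adjusted *P* = 0.772) over all wells, by the quasi-likelihood test of edgeR adjusted after Benjamini and Hochberg. With the replicate block (the replicate number as a term in the fit), *Slc1a2* passed over all wells (log2 fold change 0.15, adjusted *P* = 0.0353) and in replicates 1 and 2 (0.20, adjusted *P* = 0.0225), and DESeq2 without a block also passed it in replicates 1 and 2 (0.20, adjusted *P* = 0.0139). Over all wells, the replicate block passed more of all genes than the fit without a block. In edgeR without a block, leaving out vehicle replicate 3 or vehicle replicate 4, both of the other side, left its value in replicates 1 and 2 at 0.21. The standard error was 0.04 in each case, since it is taken from the wells of both sides.

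*Slc1a3* was lower with MCH in both wells of replicates 1 and 2 (log2 fold change −0.20, standard error 0.08, adjusted *P* = 0.259 in edgeR) and higher in both wells of replicates 3 and 4 (0.07, standard error 0.08, adjusted *P* = 0.833). The difference of 0.27 (standard error 0.11) did not pass (adjusted *P* = 0.648 in edgeR). With the replicate block, both the value in replicates 1 and 2 (−0.20, adjusted *P* = 0.00175) and the difference (0.27, adjusted *P* = 0.0177) passed. For the difference, that block also passed more of all genes than the fit without a block. Of the 12 other genes of glutamate uptake and the glutamine cycle, 11 were tested and 0 passed in any of the 4 comparisons by edgeR, with a median ratio between the sides of 0.949. *Glul*, the astrocytic glutamine synthetase, was 2.61-fold and the glutamine transporter *Slc38a3* 2.67-fold higher in replicates 3 and 4, while the transaminases *Got1* and *Got2* were at 0.831-fold and 0.923-fold.

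*Aldoc* encodes aldolase C, a glycolytic enzyme abundant in astrocytes, and was the only one of the 7 markers tested that passed the test in any comparison of the fit without a block. It read 74.4, 67.4, 244.3 and 219.2 CPM with vehicle and 55.6, 54.8, 262.0 and 241.3 CPM with MCH. The MCH wells lay below the vehicle wells in replicates 1 and 2 and overlapped them in replicates 3 and 4. *Aldoc* fell by 0.36 on the log2 scale in replicates 1 and 2 (standard error 0.07, adjusted *P* = 0.00572 in edgeR), a direction in which 1.79% of all genes passed. It was 0.12 higher in replicates 3 and 4 (standard error 0.06, adjusted *P* = 0.493), where 0.18% of all genes passed as higher. The difference between the responses, 0.48 (standard error 0.09), did not pass in edgeR without a block (adjusted *P* = 0.110), but passed with the replicate block (0.48, adjusted *P* = 0.000695) and in DESeq2 (0.47, adjusted *P* = 0.00262). The call in replicates 1 and 2 was lost without vehicle replicate 1 (−0.28, adjusted *P* = 0.0660), MCH replicate 1 (−0.36, adjusted *P* = 0.0783) or MCH replicate 2 (−0.34, adjusted *P* = 0.0718), and with an offset for the effective length, called the length offset (−0.34, adjusted *P* = 0.179). The difference passed without vehicle replicate 2 (0.54, adjusted *P* = 0.0450) or vehicle replicate 3 (0.55, adjusted *P* = 0.0415).

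*Gja1*, which encodes connexin 43, the main gap junction protein of astrocytes, read 7.78, 7.25, 33.3 and 32.02 CPM with vehicle and 6.71, 5.33, 36.4 and 37.3 CPM with MCH. It was 5.13-fold higher in replicates 3 and 4, with no overlap of the treatments on either side. Its log2 fold changes of −0.31 (standard error 0.12, adjusted *P* = 0.153) and 0.17 (standard error 0.08, adjusted *P* = 0.421), and their difference of 0.48 (standard error 0.14, adjusted *P* = 0.351), did not pass in edgeR. Of the 8 other connexins, pannexins and partners, 6 were tested, and *Tjp1*, the junction scaffold ZO-1, rose by 0.28 with MCH in replicates 1 and 2 (adjusted *P* = 0.0108 in edgeR). In that comparison 311 of all 14962 genes passed as higher. *Gjb6*, the other main astrocyte connexin, did not pass the filter on low counts.

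*Sox9*, the transcription factor that specifies astroglia, read 8.40, 8.15, 23.5 and 22.7 CPM with vehicle and 7.22, 7.25, 24.7 and 24.0 CPM with MCH, and was 3.06-fold higher in replicates 3 and 4. The treatments did not overlap on either side. Its log2 fold changes were −0.19 (standard error 0.10, adjusted *P* = 0.319) and 0.08 (standard error 0.08, adjusted *P* = 0.815) in edgeR, and their difference 0.27 (standard error 0.13, adjusted *P* = 0.646). Of 16 other transcription factors and Notch receptors of astroglia, 9 were entirely higher in replicates 3 and 4 (16.6% of all genes). *Nfix* and *Nfib*, of the nuclear factor I family, rose with MCH in replicates 1 and 2 by 0.23 (adjusted *P* = 0.00133) and 0.31 (adjusted *P* = 0.000589) in edgeR, where 311 of all 14962 genes passed as higher. They were 1.07-fold and 1.10-fold higher in replicates 3 and 4 with overlapping sides.

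*Aldh1l1*, a folate enzyme used as a pan-astrocyte marker, read 6.31, 4.78, 21.6 and 19.8 CPM with vehicle and 5.05, 4.77, 23.8 and 21.2 CPM with MCH. *S100b*, a calcium-binding protein of astrocytes, was the lowest marker, at 2.75, 1.38, 3.17 and 4.16 CPM with vehicle and 1.56, 1.43, 3.74 and 5.23 CPM with MCH, from 38 to 149 estimated counts per well. In both genes the treatments overlapped on each side. For *Aldh1l1* the log2 fold changes were −0.17 (standard error 0.14, adjusted *P* = 0.576) and 0.12 (standard error 0.10, adjusted *P* = 0.763) in edgeR, and for *S100b* −0.45 (standard error 0.31, adjusted *P* = 0.487) and 0.29 (standard error 0.25, adjusted *P* = 0.782). The differences, 0.29 (standard error 0.17, adjusted *P* = 0.756) and 0.74 (standard error 0.40, adjusted *P* = 0.723) in edgeR, did not pass. With the length offset, *Aldh1l1* turned to 0.10 in replicates 1 and 2. Of the S100, aldolase and ALDH1 relatives of these genes, 9 of 13 were tested. Their median ratio between the sides was 3.305 (all genes 0.997). In replicates 3 and 4, 6 of the 9 lay entirely higher (16.6% of all genes) and 2 entirely lower (13% of all genes). The difference between the responses was positive in all 9 (7844 of all 14962 genes) and passed in 0 by edgeR. *S100a10*, an annexin partner, fell by 0.27 in replicates 1 and 2 (adjusted *P* = 0.0342 in edgeR), and *Aldoa*, the aldolase of most tissues and the most abundant of them, was at 0.918-fold in replicates 3 and 4.

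Over all wells, with the sides pooled, MCH and vehicle overlapped in all 10 markers. None of the 7 markers tested passed in edgeR, where 35 of 14962 genes did (0.234%), and at an unadjusted *P* value under 0.05 the number was 0 of the 7 and 1272 of all genes. Their log2 fold changes ran from 0.01 in *Sox9* and *Slc1a3* to 0.15 in *Slc1a2*, with standard errors of 0.48 to 0.84 in the 6 other than *Slc1a2*. For *Gfap*, *Aqp4* and *Ptn* the values were 0.06, 0.07 and 0.07, with standard errors of 0.78, 0.92 and 0.57. These errors contain the distance between the sides. With the sides as a term in the fit (the batch block), *Gfap*, *Aqp4* and *Ptn* were at −0.09, −0.04 and −0.02 (standard errors 0.12, 0.13 and 0.10).

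Within the sides, 6 of the 7 markers tested had the signs of the 3 that were picked, and *Slc1a2* did not. In replicates 1 and 2, 4 of the 7 were lower with MCH in both wells, 1 was higher and 2 overlapped, where 27.2% of all genes were lower without overlap. In replicates 3 and 4, 4 of the 7 were higher in both MCH wells and 3 overlapped, where 20.5% of all genes were higher without overlap. Lower in replicates 1 and 2 and higher in replicates 3 and 4, without overlap, was the pattern of *Slc1a3*, *Gja1* and *Sox9*, and of 2.91% of all genes. The median log2 fold change of the 7 was −0.20 in replicates 1 and 2 (all genes −0.01) and 0.12 in replicates 3 and 4 (all genes 0.00034), and the median difference was 0.29 (all genes 0.01). By edgeR without a block, the difference itself passed in 0.0267% of the 14962 genes tested (the 3 picked genes included) and in 0 of the 7. An unadjusted *P* value under 0.05 was reached in that fit in 4 of the 7 and in 1137 of all genes. With the replicate block the difference passed in 59 of all genes and in 2 of the 7, *Slc1a3* and *Aldoc*. DESeq2 passed the difference in *Aldoc* alone among the 3 of the 7 to which it gave an adjusted *P* value.

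**Figure D2:**
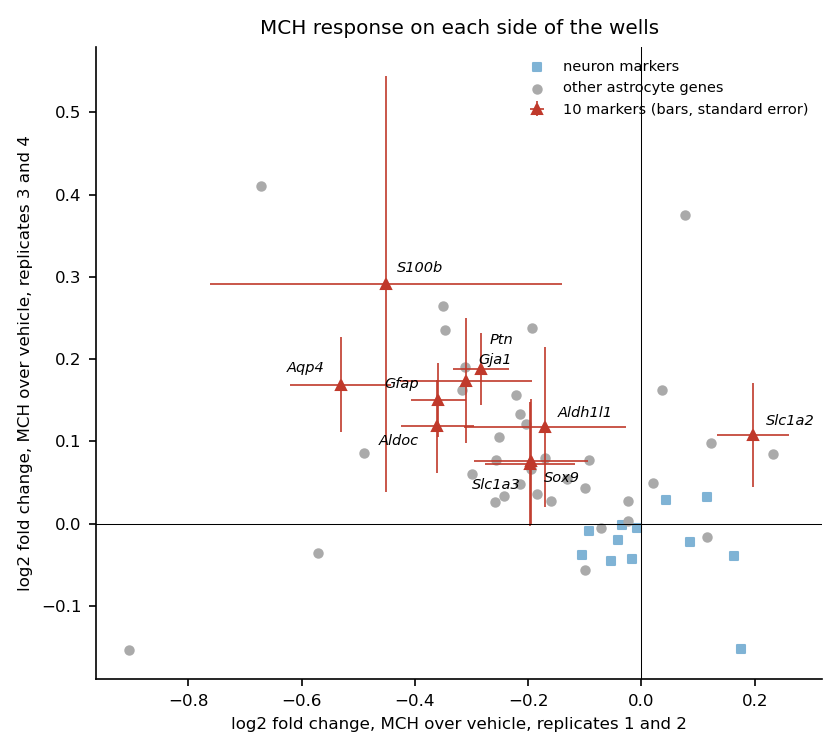
Log2 fold change of MCH over vehicle in replicates 3 and 4 against that in replicates 1 and 2, for the 10 astrocyte markers (red triangles, bars are standard errors), the other astrocyte genes listed (grey circles) and 12 neuron markers (blue squares). Of the 10 markers, 9 lie at the upper left and *Slc1a2*, at 0.20 and 0.11, in the upper right.

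Another 36 astrocyte genes, listed by name, mostly had the signs of the markers. Of the 35 tested, 32 lay entirely higher in replicates 3 and 4 (16.6% of all genes), with a median ratio of 2.64 (the 10 markers 3.73, all genes 0.997). In replicates 1 and 2, 29 of the 35 had a negative log2 fold change with MCH (8052 of all 14962 genes). The median was −0.20 (the 7 markers tested −0.20), and 5 passed as lower in edgeR's test (1.79% of all genes). These were the lipid carriers *Apoe* (−0.26, adjusted *P* = 0.00318) and *Clu* (−0.20, adjusted *P* = 0.0205), together with *Ndrg2* (−0.18, adjusted *P* = 0.0177), the phagocytic bridge *Mfge8* (−0.32, adjusted *P* = 0.0349) and the endfoot membrane protein *Mlc1* (−0.22, adjusted *P* = 0.0377). *Slc6a11*, the GABA transporter GAT-3, passed as higher (0.23, adjusted *P* = 0.0109 in edgeR), as did 311 of all genes. In replicates 3 and 4 the median was 0.08, with 30 of 35 positive (7496 of all genes) and 0 passing by edgeR. The difference, with a median of 0.28 (the 7 markers tested 0.29), was positive in 32 of 35 (7844 of all genes) and passed in 0. These genes were measured in the same wells and are not replicates of each other. *Slc6a11*, like *Slc1a2*, was close in the sides (1.32-fold) and higher with MCH in both.

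Genes related to the markers by function were less uniform. Of the 10 tested genes of the endfoot and dystrophin complex, which anchors *Aqp4*, *Kcnj10* (the potassium channel Kir4.1) was 6.97-fold higher in replicates 3 and 4 and *Mlc1* 3.71-fold, whereas the dystroglycan gene *Dag1* was 1.24-fold and the dystrobrevin gene *Dtna* 1.06-fold. *Dmd* rose by 0.20 with MCH in replicates 1 and 2 (adjusted *P* = 0.0412 in edgeR), where 311 of all genes passed as higher. Of the 10 intermediate filament genes besides *Gfap*, *Vim* and *Nes*, the filaments of immature glia, were 2.58-fold and 2.57-fold higher in replicates 3 and 4, and the neurofilament genes *Nefl* and *Nefh* were at 0.927-fold and 0.832-fold. *Vim* fell by 0.30 with MCH in replicates 1 and 2 (adjusted *P* = 0.00215 in edgeR). Genes associated with reactive astrocytes had a median ratio of 1.93, and 14 of 20 tested lay entirely higher in replicates 3 and 4 (16.6% of all genes). Of these, only *Vim* and *S100a10* passed with MCH, both lower in replicates 1 and 2.

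Markers of other non-neuronal cells moved between the sides together with the astrocyte markers, and their part in the result was not tested. The median ratio was 2.86 for 10 genes of dividing cells, 2.30 for 10 tested genes of fibroblasts and vessels, 2.56 for 5 of ependyma and choroid plexus, 2.14 for 9 of microglia and 1.87 for 7 of the oligodendrocyte lineage. Their summed levels were low. Dividing cell genes summed to 58.3 to 67.4 CPM in replicates 1 and 2 and 87.2 to 93.4 CPM in replicates 3 and 4, oligodendrocyte lineage genes to 68.2 to 79.0 and 147.3 to 169.7 CPM, fibroblast and vessel genes to 32.1 to 42.7 and 91.1 to 95.8 CPM, microglia genes to 27.4 to 31.5 and 33.8 to 41.8 CPM, and ependyma and choroid plexus genes to 29.2 to 35.0 and 73.3 to 91.1 CPM. *Olig1* and *Mbp* held most of the oligodendrocyte lineage sum, and the defining genes *Sox10* and *Mog* had a mean of 0 TPM and *Mag* and *Gpr17* of under 0.02 TPM. The microglial genes *Tmem119* and *P2ry12* were at 0.05 and 0.12 TPM. With MCH, 8052 of all 14962 genes had a negative log2 fold change in replicates 1 and 2. So did 9 of the 10 genes of dividing cells (median −0.17), 8 of the 10 of fibroblasts and vessels (−0.12) and 6 of the 9 of microglia (−0.10). The oligodendrocyte lineage had 5 of 7 (−0.17), and ependyma and choroid plexus 2 of 5 (0.08). The median difference between the responses was 0.24 for dividing cells, 0.21 for fibroblasts and vessels, 0.40 for microglia, 0.10 for the oligodendrocyte lineage and −0.15 for ependyma and choroid plexus. No gene of these 5 lists passed with MCH in edgeR. Neuron markers went the other way, with a median ratio of 0.938 and 7 of 12 entirely lower in replicates 3 and 4 (1945 of the 14962 genes, 13%, were), and the markers of inhibitory neurons had a median of 0.816, with the neuropeptide genes *Sst* at 0.676 and *Npy* at 0.433. *Gad1*, the GABA-synthesizing enzyme of inhibitory neurons, fell by 0.14 with MCH in replicates 1 and 2 (adjusted *P* = 0.0203 in edgeR).

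**Figure D3:**
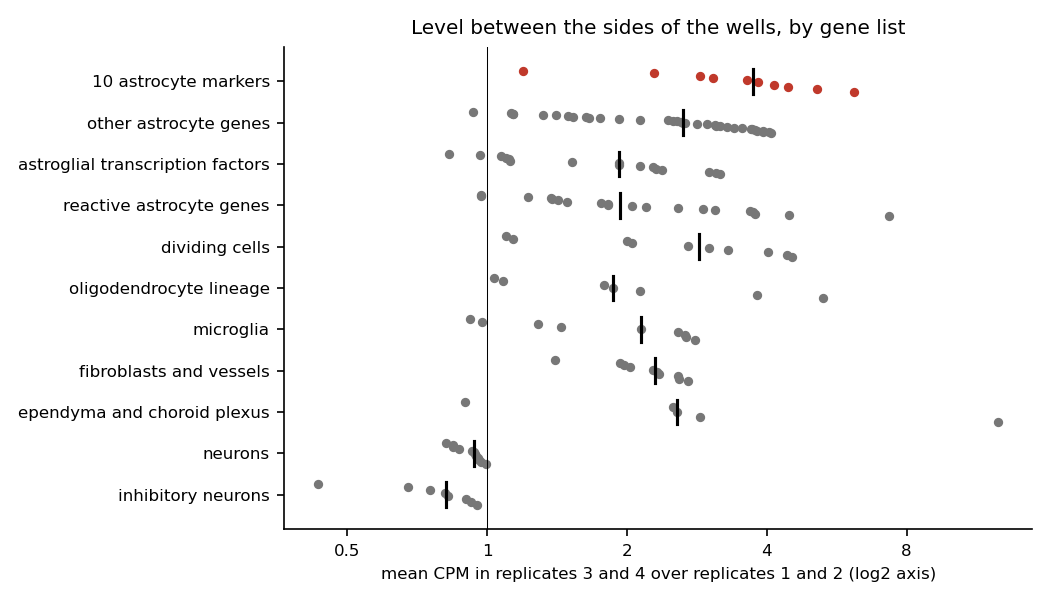
Ratio of mean CPM in replicates 3 and 4 over replicates 1 and 2 for the genes of each list that passed the filter on low counts, on a log2 axis; points are genes and black bars medians. The medians are 3.73 for the 10 astrocyte markers, 2.64 for the other astrocyte genes and 0.938 for the neuron markers.

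Per length, the order of the markers changed between the sides. In replicates 1 and 2, *Slc1a2* was the most abundant, at 148.9 ± 24.3 TPM (mean ± SD, n = 4 wells, 2 of each treatment), above *Gfap* at 104.6 ± 17.8 TPM. *Gfap* overlapped *Slc1a3* (78.1 ± 9.68 TPM), and the wells of *Ptn* (74.7 ± 7.75 TPM) and *Aldoc* (68.2 ± 9.54 TPM) overlapped in turn with the marker before them. The 5 lower markers, *Gja1*, *Sox9*, *Aldh1l1*, *Aqp4* and *S100b*, ranged from 1.86 to 4.59 TPM, each overlapping the next.

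In replicates 3 and 4, *Gfap* led at 482.2 ± 36.8 TPM (mean ± SD, n = 4 wells), above *Slc1a3* at 283.3 ± 20.9 TPM, and *Slc1a2* came after *Ptn* at 161.9 ± 10.9 TPM. *Slc1a3* overlapped *Aldoc* (265.0 ± 20.5 TPM), *Aldoc* overlapped *Ptn* (217.4 ± 18.7 TPM), and every well of *Ptn* was above *Slc1a2*. *Gja1* (20.8 ± 1.65 TPM), *Aqp4* (19.7 ± 1.48 TPM) and *Aldh1l1* (15.9 ± 3.64 TPM) overlapped in turn. *Sox9* (10.4 ± 0.440 TPM) lay below them and above *S100b* (5.64 ± 1.22 TPM). In TPM the sides of *Slc1a2* overlapped, at 127.4 to 182.7 and 146.1 to 169.7 TPM, although in CPM they did not.

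**Figure D4:**
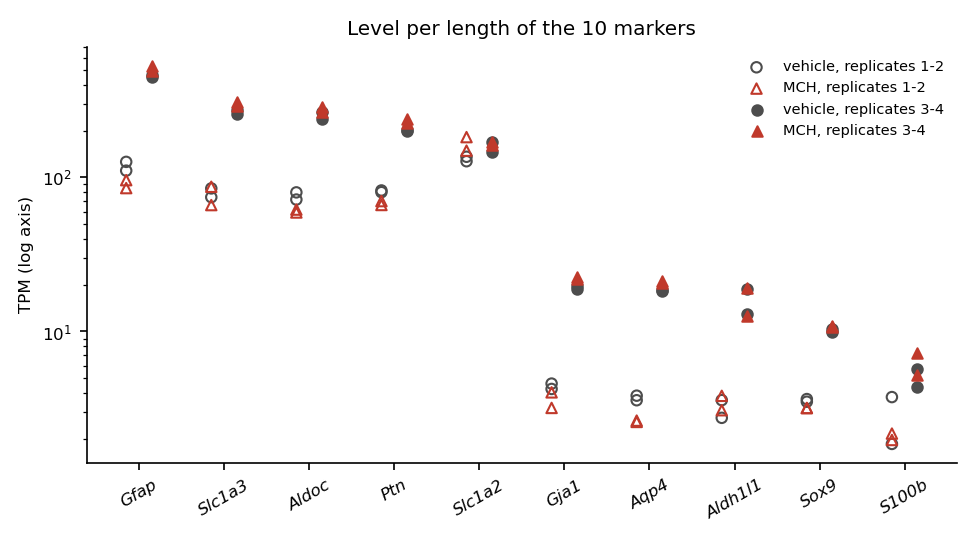
Gene TPM of the 10 markers in each well on a log axis, ordered by their mean in replicates 3 and 4; open symbols are replicates 1 and 2, filled symbols replicates 3 and 4, circles vehicle and triangles MCH. *Slc1a2* overlaps between the sides near 150 TPM, while *Gfap* moves from 104.6 to 482.2 TPM.

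Taken relative to *Gfap* within each well, several markers did not keep fixed proportions. *Aqp4* stood at 6.59% and 6.90% of the *Gfap* CPM in vehicle replicates 1 and 2, at 5.83% and 6.12% in the MCH wells of that side, and at 8.80% to 9.05% in replicates 3 and 4. *Ptn* went the other way, from 40.0% to 46.9% in replicates 1 and 2 to 26.6% to 29.6% in replicates 3 and 4, and *Sox9* from 5.03% to 6.06% down to 3.66% to 3.92%. *Aldh1l1* overlapped between the sides, at 3.18% to 3.99% and 3.30% to 3.61%, *Aldoc* stood at 43.6% to 45.8% and 37.2% to 40.7%, and *Slc1a2* was furthest from constant, at 440% to 679% and 138% to 155%.

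Across the 8 wells, log2 CPM of *Gfap* and of 7 other markers correlated at Pearson's r of 0.99570 to 0.99934, while *S100b* was at 0.90665 and *Slc1a2* at 0.75939. These correlations are descriptions over 8 wells that form 2 groups far apart, and 794 genes had an r over 0.95 with *Gfap*. The genes nearest to *Gfap* were *Dbi* (0.99947), *Mfge8* (0.99926), *Cd9* (0.99917), *Hopx* (0.99913) and *Ndrg2* (0.99902). Nearest to *Aqp4* were *Cd9* (0.99925), *Sparc* (0.99922), *Dbi* (0.99892), *Dazap2* (0.99889) and *Ndrg2* (0.99880), and nearest to *Ptn* were *Angpt1* (0.99894), *Zic5* (0.99779), *Dbi* (0.99767), *Cd9* (0.99752) and *Prdx6* (0.99745).

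Most markers were carried by 1 transcript. *Gfap*-201 made up 84.6% to 93.7% of the *Gfap* TPM in the 8 wells, *Gfap*-202 5.96% to 7.30%, and the 356-base *Gfap*-203 0% to 9.17% on at most 86.9 estimated reads. *Aldoc*-202 held 87.3% to 90.9% of its gene and *Aldoc*-201 8.72% to 12.3%, and *Ptn*-201 held over 99.9% in every well. These shares changed little where the gene level moved 2.88-fold to 4.44-fold. *Slc1a2*-202 held 66.7% to 86.8%, and *Slc1a2*-208, of 209 bases, 0% to 21.0% on no more than 6 estimated reads per well, so that the *Slc1a2* TPM in MCH replicate 2 rests in part on few reads. *Slc1a3*-201 held 85.8% to 99.4%. *Slc1a3*-204, a 469-base transcript annotated with a retained intron, was listed at 0 in the 4 vehicle wells and MCH replicate 2, and at 48.5, 71.6 and 47.4 estimated reads in MCH replicates 1, 3 and 4, which was not tested. *Aldh1l1*-201 held 52.7% to 98.9% of its gene, while *Aqp4*, *S100b*, *Gja1* and *Sox9* have 1 transcript each in the table.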

How the data were processed

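RNA-seq of 8 wells (4 per treatment) was analysed. Salmon, run by the authors within nf-core/rnaseq on GRCm38, gave the deposited estimated counts per gene, which are not scaled for library size or length. The deposited transcript tables hold estimated counts, effective length and TPM, which the authors' run scaled for length and depth. The annotation release is not given in the sources used here. GENCODE vM21 on GRCm38 named 45143 of 45706 genes and gave the coordinates, and promoter windows came from RefSeq (GRCm38.p6).

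Counts were rounded and fitted in R 4.3.3 with edgeR 4.0.16 (TMM, filterByExpr by treatment with a count minimum of 10 and a total minimum of 15, robust quasi-likelihood F test, Benjamini–Hochberg adjustment over 14962 genes, threshold 0.05). Pooled treatments were compared without a block. Responses in replicates 1 and 2, in replicates 3 and 4, and their difference came from 1 fit over 4 groups. A standard error is the log2 fold change over the square root of F. No separate cultures are assigned to wells, so the tests measure the spread between wells, which may be technical. Self-tests were run on simulated counts.

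Replicate numbers are shared by the treatments. Deviations from the treatment means correlated at 0.445 to 0.545 in the 4 pairs with the same number, at 0.475 to 0.521 between other numbers of the same side, and at −0.548 to −0.438 across the sides. Every pair with the same number was over 0.1, and the replicate number was used as a block in an alternative fit. Other numbers of the same side correlated about as highly, so these values show the side and not a pairing by number. No source says what a number marks. Calls made only with the replicate block therefore rest on a pairing that was not shown.

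The markers, the lists of genes and the sides were chosen with earlier results of these data known. Named genes are the markers in every well, their transcripts with a mean TPM of 1 or more, list genes that passed a test, otherwise the 3 most abundant of a list, and the 5 genes most correlated with each of *Gfap*, *Aqp4* and *Ptn*. Other list genes named (*Mdk*, *Ptprz1*, *Glul*, *Slc38a3*, *Kcnj10*, *Nes*, *Nefh*, *Gjb6* and the markers at or near 0) were chosen after their values were seen, and 1 gene that the rule would name is not reported here. Alternatives were DESeq2 1.42.0, DESeq2's size factors, no filter, the replicate block, a block for the sides (batch block), an offset for the effective length, and leaving out each well.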

Additional observations from a re-analysis of the deposited data

Results flagged for a closer look

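In *Gfap*, *Aqp4* and *Ptn* both MCH wells of replicates 1 and 2 lay below the vehicle wells and both MCH wells of replicates 3 and 4 above them. The response in replicates 3 and 4 exceeded that in replicates 1 and 2 by 0.51 in *Gfap*, 0.70 in *Aqp4* and 0.47 in *Ptn* on the log2 scale. A test of the difference is not reported for these 3 genes, because they were picked on it.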

How the results depend on the processing

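The number of genes passing over all wells was 35 in the fit without a block, 170 with DESeq2, 596 with the replicate block, 668 with the batch block and 7 with the length offset. In replicates 1 and 2 it was 579, but 1166 without the filter on low counts and 0 with the length offset, and in replicates 3 and 4 it was 117, but 353 and 0. For the difference it was 4, but 12 with DESeq2, 266 without the filter, 59 with the replicate block and 0 with the length offset. The genes tested include the 3 picked on this difference, so these numbers are no support for them. Leaving out 1 well gave 4 to 29 over all wells, 154 to 872 in replicates 1 and 2, 27 to 204 in replicates 3 and 4 and 3 to 277 for the difference. The lowest numbers came without vehicle replicates 4, 2, MCH replicate 4 and vehicle replicate 1 in that order, and the highest without vehicle replicate 3 and MCH replicates 2, 1 and 2.

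Over all wells *Slc1a2* was above 0 in every setting run (0.0854 to 0.242), and the sign of the other 6 markers tested depended on the setting. With the replicate block and the batch block the log2 fold changes were −0.0567 and −0.0560 for *Slc1a3*, −0.000707 and −0.00580 for *S100b*, −0.0234 and −0.0233 for *Sox9*, and −0.0926 and −0.0925 for *Aldoc*. They were also below 0 with both blocks for *Gfap*, *Aqp4* and *Ptn*. With 1 well left out they ran from −0.324 to 0.326 for *Slc1a3*, −0.344 to 0.413 for *Aldh1l1*, −0.348 to 0.297 for *S100b*, −0.315 to 0.452 for *Gja1*, −0.289 to 0.274 for *Sox9* and −0.366 to 0.353 for *Aldoc*. In replicates 1 and 2 they ran from −0.353 to 0.0501 for *Aldh1l1* and −0.866 to 0.133 for *S100b*, both above 0 without vehicle replicate 1, and the difference ran from −0.198 to 0.00333 for *Slc1a2*, above 0 without vehicle replicate 3. *Slc1a3* in replicates 1 and 2 ran from −0.289 to −0.0945 (the latter without vehicle replicate 1, and −0.0946 without MCH replicate 2) and *Gja1* there from −0.488 without MCH replicate 1 to −0.151 without MCH replicate 2, and in replicates 3 and 4 *Aldoc* ran from 0.0392 without vehicle replicate 4 to 0.201 without vehicle replicate 3. With the length offset *Aldh1l1* was at 0.0970 in replicates 1 and 2, −0.00457 in replicates 3 and 4 and −0.102 for the difference. Without the filter on low counts, *Slc1a2* (0.22, adjusted *P* = 5.98e-08) and *Slc1a3* (−0.18, adjusted *P* = 0.00108) passed in edgeR in replicates 1 and 2, and the difference passed for *Slc1a3* (0.24, adjusted *P* = 0.00509) and *Aldoc* (0.45, adjusted *P* = 4.02e-08). The replicate block changed no other call of the markers tested than those given above. The cause of these changes was not tested. With 2 wells per treatment in each side, no permutation of wells within a side could reach 0.05.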
